A study of Homo sapiens with 14 samples.

Results

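The PAX family comprises 9 human genes, PAX1 to PAX9, and was examined through every called ChIP-seq region that overlapped a window made of the gene span and 20 kb on either side (GRCh38). These are 9 of 20037 protein-coding genes in the RefSeq table. The cells were HS-SY-II, an established synovial sarcoma line whose genotype the labels give as WT. Chromatin immunoprecipitation followed by sequencing (ChIP-seq) used an antibody to GLTSCR1, a subunit of GBAF, which is 1 of the assemblies of the BAF chromatin remodeller, or an anti-HA antibody directed at a tagged SS18::SSX fusion protein, the oncoprotein of this sarcoma. How the HA tag was introduced, and whether the cells used for GLTSCR1 also carried it, is not given in the sources used here. GLTSCR1 was profiled with DMSO vehicle and after 12, 24, 48 and 96 h of 100 nM WA-68, a PROTAC that degrades the GBAF subunit BRD9. The fusion was profiled with DMSO and after 12, 24 and 48 h. No time is given for DMSO, so time in culture and time of WA-68 cannot be told apart. Each of these 9 groups held 1 library, hence no test between conditions was possible and no p-value is given. The 5 input libraries were not analysed here. The files hold peaks and no expression, so the cell type was not checked against marker genes.

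PAX genes encode transcription factors that bind DNA through a paired domain and that set up organs and cell lineages in the embryo. PAX1 and PAX9 pattern the sclerotome, pharyngeal pouches and teeth, PAX2, PAX5 and PAX8 act in kidney, B cells and thyroid, PAX3 and PAX7 in neural crest and muscle progenitors, and PAX4 and PAX6 in pancreatic islets and the eye. Like many developmental regulators they are kept silent by Polycomb in most adult cell types, and PAX3 and PAX7 are themselves partners of fusion oncoproteins in alveolar rhabdomyosarcoma.

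Fusion regions covered the outermost start of 6 PAX genes in at least 1 list and those of PAX4 and PAX8 in none. Whether promoter sequence relates to these calls was not tested. RefSeq promoters (GRCh38.p14) matched 8 members; PAX1 had no entry. Shown first are 3 starts that were called, then 2 that were not. The capitals mark CG dinucleotides, and each line gives the 250 bases before a start. The PAX2 start that lies 10.2 kb inside the outermost one (chr10:100745332-100745581, plus strand) was the only PAX start called in all 9 lists. The PAX3 start (chr2:222298999-222299248, minus strand) was called in 4 GLTSCR1 and 4 fusion lists, and the outermost PAX6 start (chr11:31817962-31818211, minus strand) in 4 fusion lists and no GLTSCR1 list. The outermost PAX4 start (chr7:127618143-127618392, minus strand) and the PAX8 start (chr2:113278922-113279171, minus strand) were called in none.
PAX2 internal start: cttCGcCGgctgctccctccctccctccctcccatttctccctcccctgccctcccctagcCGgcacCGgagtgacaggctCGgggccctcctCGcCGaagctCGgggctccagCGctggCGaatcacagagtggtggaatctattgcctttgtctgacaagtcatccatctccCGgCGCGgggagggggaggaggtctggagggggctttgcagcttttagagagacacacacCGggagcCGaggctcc
PAX3: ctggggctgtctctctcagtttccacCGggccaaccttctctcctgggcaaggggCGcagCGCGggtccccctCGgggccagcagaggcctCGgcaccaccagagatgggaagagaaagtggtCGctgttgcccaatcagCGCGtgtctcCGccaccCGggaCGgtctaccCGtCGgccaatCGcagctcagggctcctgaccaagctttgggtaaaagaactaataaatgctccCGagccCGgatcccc
PAX6: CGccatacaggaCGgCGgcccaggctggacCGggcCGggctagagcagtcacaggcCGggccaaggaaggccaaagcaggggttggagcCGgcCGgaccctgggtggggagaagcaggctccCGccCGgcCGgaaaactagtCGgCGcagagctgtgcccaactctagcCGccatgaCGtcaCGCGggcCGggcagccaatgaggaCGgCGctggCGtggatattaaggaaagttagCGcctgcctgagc
PAX4: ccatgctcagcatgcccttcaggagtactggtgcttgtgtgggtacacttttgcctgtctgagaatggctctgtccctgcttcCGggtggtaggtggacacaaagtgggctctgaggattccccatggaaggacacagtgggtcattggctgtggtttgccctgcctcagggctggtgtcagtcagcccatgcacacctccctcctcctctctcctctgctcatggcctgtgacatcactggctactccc
PAX8: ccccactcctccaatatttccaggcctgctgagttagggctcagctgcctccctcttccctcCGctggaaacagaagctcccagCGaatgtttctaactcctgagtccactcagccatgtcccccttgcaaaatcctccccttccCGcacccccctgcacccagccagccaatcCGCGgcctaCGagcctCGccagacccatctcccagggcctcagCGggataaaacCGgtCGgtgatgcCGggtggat
The internal PAX2 promoter held 15 CG dinucleotides, that of PAX3 17 and that of PAX6 22. The PAX4 promoter held 1 and the PAX8 promoter 11. Internal PAX6 starts that at least 1 fusion list called held 15, 19 and 10, in order from the outermost start. Those nearer the 3′ end, which no list called, held 3, 14, 28, 5 and 11. Of the outermost starts not printed, that of PAX2 held 10, PAX9 13, PAX7 18 and PAX5 27, and the median over 15842 genes was 17. PAX8 and the outermost PAX2 start thus had nearly the same CG count, while all 4 fusion lists called the PAX2 start and none called that of PAX8. Over all genes, those with at least 10 CG in the promoter had their window called more often than those with fewer. Here the window is the gene span and 20 kb either side, not the start. The shares were 60.3% against 31.5% in the GLTSCR1 DMSO list and 39% against 22.4% in the fusion DMSO list.

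Other motifs were searched on both strands of the 250 bases before each outermost start. The PAX6 promoter held GTCACGC, a core of the paired-domain recognition sequence, beginning 72 bases before the start; 2.87% of all promoters held it. PAX5 held TATAAA, as did 9.35% of promoters, and no member held TGACTCA, the AP-1 site, which 3.14% held. A match in these letters is a description of the sequence and not a binding site.

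A called region lay in the window of 6 PAX genes, PAX2, PAX3, PAX5, PAX6, PAX7 and PAX9, in every GLTSCR1 list. Over all protein-coding genes the same rule called 50.3% in the DMSO list and, in order of time, 47.2%, 36.6%, 28.8% and 35.8%. The fusion list of DMSO called these 6 genes and PAX8 (33.9% of all genes), and the lists at 12, 24 and 48 h called the same 6 (33.6%, 30.9% and 32.7% of all genes). Presence in all 9 lists, which held for 6 of the 9 PAX genes, held for 11.6% of genes, while presence in all 5 GLTSCR1 lists held for 19.5% and in all 4 fusion lists for 20.1%. PAX1 and PAX4 had no region in any list, as did 31.7% of genes.

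The PAX windows differed from the average window more in the length covered than in being called at all. GLTSCR1 regions covered 65.4 kb of the 9 windows in DMSO, 33.3 kb at 12 h, 35.1 kb at 24 h, 49.1 kb at 48 h and 53.8 kb at 96 h. These lengths were 6.49%, 3.3%, 3.48%, 4.88% and 5.34% of the windows, against 1.02%, 0.696%, 0.554%, 0.444% and 0.56% of all gene windows pooled. Fusion regions covered 209 kb in DMSO, 215 kb at 12 h, 219 kb at 24 h and 236 kb at 48 h, or 20.8%, 21.3%, 21.7% and 23.5% of the windows, where all gene windows pooled had 1.54%, 1.61%, 1.43% and 1.51%. In 5 members (PAX2, PAX3, PAX5, PAX6 and PAX9) more than 10% of the window lay under fusion regions in all 4 fusion lists, as it did in 4.63% of genes in DMSO and 4.48% at 48 h.

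Set against DMSO, covered length in the PAX windows was lower for GLTSCR1 at every time and slightly higher for the fusion in these libraries. GLTSCR1 coverage of the PAX windows stood at 50.9% of its DMSO length at 12 h and 53.7% at 24 h, and at 75.1% at 48 h and 82.3% at 96 h. The whole GLTSCR1 list, by contrast, covered 66.2%, 62.5%, 51% and 61.2% of its DMSO length at those times. The PAX share was thus below that of the list at 12 and 24 h and above it at 48 and 96 h. Without PAX2 the other PAX windows stood at 41.3%, 39.4%, 58.1% and 70.5%, further below the list at 12 and 24 h and less far above it at 48 and 96 h. Fusion coverage of the PAX windows was 102%, 104% and 113% of its DMSO length in order of time, or 99.6%, 98.2% and 110% without PAX2, and the whole fusion list stood at 107%, 89.3% and 98.3%. Each antibody has 1 DMSO list, which all its comparisons share. Covered length moves with how much the caller reported in each library, which depends on a depth that the peak lists do not give. The median summit fold of GLTSCR1 regions in the PAX windows was 4.99 in DMSO and 4.35, 4.25, 4.74 and 4.49 at the later times; that of fusion regions was 4.88 in DMSO, then 4.99, 5.09 and 5.39. Folds are the authors' enrichment of a summit over local background and describe regions within 1 list.

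**Figure D1:**
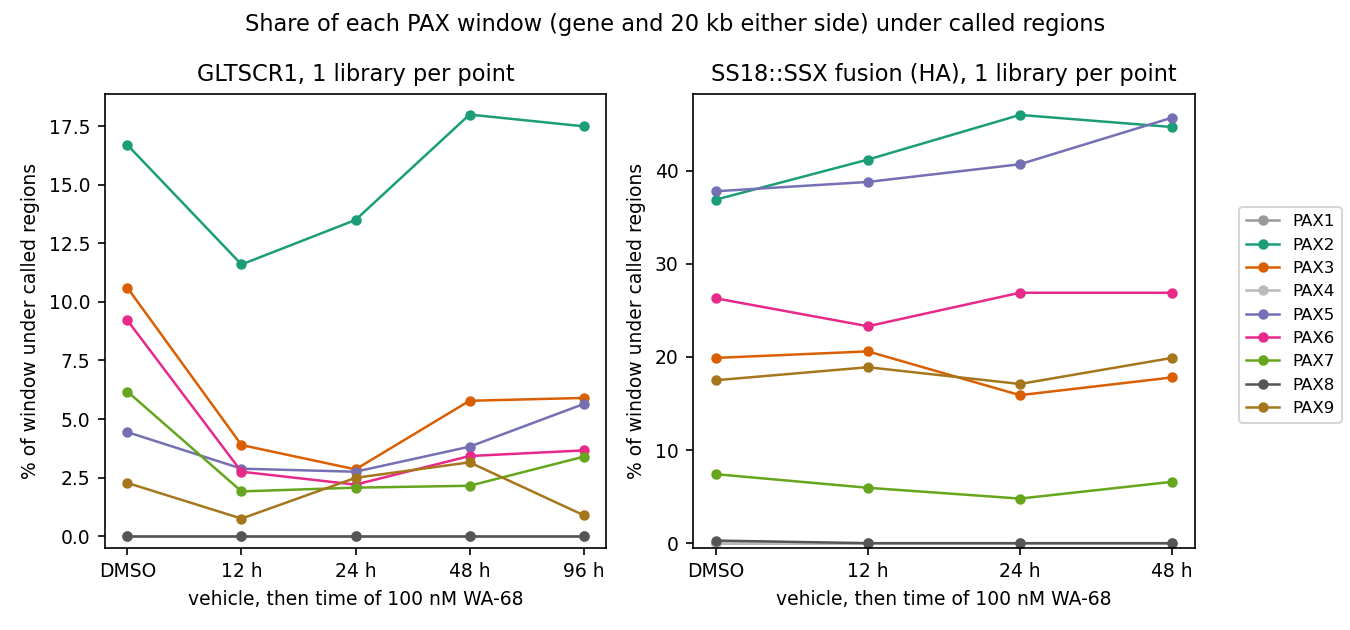
Percent of each PAX window (gene span and 20 kb either side) under called regions, for GLTSCR1 (left) and the SS18::SSX fusion (right), in DMSO and at each time of WA-68. Each point is 1 library; no error can be drawn. PAX2 had the highest GLTSCR1 share in all 5 lists, and PAX2 and PAX5 stood above the other members in all 4 fusion lists.

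PAX2 had the most extensive GLTSCR1 coverage of the family. It encodes a paired-domain factor of kidney, ear and optic nerve development and lies on chromosome 10 at 100735396 to 100829944, plus strand. GLTSCR1 regions covered 22.5 kb of its window in DMSO, 15.6 kb at 12 h, 18.2 kb at 24 h, 24.2 kb at 48 h and 23.6 kb at 96 h. The 48 and 96 h lists thus covered more of PAX2 than the DMSO list did, at 108% and 105% of its length, and the 12 h list the least. Its covered share of 16.7% in DMSO ranked 204 among 20037 genes and its 18% at 48 h ranked 111. Fusion regions covered 49.7 kb in DMSO, 55.4 kb at 12 h, 61.9 kb at 24 h and 60.2 kb at 48 h, the 3 treated lists all above DMSO.

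The PAX2 calls fell mostly into a group around the 5′ end and a group at the 3′ end. Between these ends, the middle segment of the gene, when its span was divided into 3 equal segments, held no GLTSCR1 bases in DMSO, 24 h or 48 h, 0.29 kb at 12 h and 0.249 kb at 96 h. Fusion regions covered 0.525 kb of that segment in DMSO, 1.574 kb at 12 h, 2.365 kb at 24 h and 1.771 kb at 48 h. The widest GLTSCR1 region of DMSO (100736997 to 100744966, 7.97 kb, fold 6.53) lay inside the gene near its start, and the strongest (100825892 to 100829745, 3.85 kb, fold 6.61) lay at its 3′ end. At the 3′ site a stretch of 3.63 kb (100825892 to 100829524) was covered in all 9 lists. In all, 13.5 kb of the PAX2 window lay under a region in every one of the 9 lists, more than in any other member. For the fusion, the strongest and widest DMSO region was 1 and the same (100734268 to 100752405, 18.1 kb, 23 summits, fold 8.65). It spanned both annotated starts. The widest fusion regions in the windows at 12, 24 and 48 h were 18 kb, 24.3 kb and 25.2 kb long. Of the 11 GLTSCR1 regions in DMSO, 8 were overlapped at every later time and none was without a later call; all 12 fusion regions were overlapped at every later time.

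Low folds were common at PAX2 despite the wide coverage. In DMSO, 5 of its 11 GLTSCR1 regions (45.5%) had a summit fold under 3, against 3.07% of the whole list, and 6 of its 12 fusion regions (50%), against 3.55%. The same held in the treated lists, with 36.4% to 60% of GLTSCR1 regions and 27.3% to 56.2% of fusion regions at PAX2 under that fold. No GLTSCR1 or fusion region of DMSO in the other PAX windows had a fold under 3. This pattern was noticed after the values were seen, and its cause was not tested.

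PAX5, which encodes the B cell identity factor BSAP, carried the longest fusion coverage. The gene spans 201 kb of chromosome 9 (36833269 to 37034268, minus strand). Fusion regions covered 91.2 kb of its window in DMSO, 93.5 kb at 12 h, 98.1 kb at 24 h and 110 kb at 48 h, in 52, 51, 57 and 57 regions. Each later list covered more than the one before it, from 37.8% of the window in DMSO to 45.7% at 48 h. Between 94.5% and 95.6% of these bases lay within the gene span, spread along all 3 segments of it. The strongest and widest fusion region of DMSO (36924762 to 36934027, 9.27 kb, fold 13.8) had its summit 105 kb inside the start. The same stretch of the gene held the strongest fusion summit of the window at 24 h (11.8) and at 48 h (18.6), each within its own list; at 12 h the strongest (10.6) lay elsewhere in the gene.

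GLTSCR1 at PAX5 was sparser and more changeable. Its regions covered 10.7 kb in DMSO, 6.94 kb at 12 h, 6.62 kb at 24 h, 9.2 kb at 48 h and 13.6 kb at 96 h, so that only the 96 h list exceeded DMSO. Joined over the 5 lists, these regions made 32 sites, of which 5 were called in every list and 15 in 1 list only. Of the 20 regions at 96 h, 11 overlapped no DMSO region. The strongest DMSO region (36995777 to 36996292, 0.516 kb) lay 38.2 kb inside the start and was called in all 9 lists. Its site had GLTSCR1 folds of 7.81 in DMSO and of 5.42, 7.87, 6.34 and 15.2 in the later lists in order of time, the last of them the highest GLTSCR1 fold in any PAX window. The widest (37035457 to 37037759, 2.3 kb, fold 6.11) lay just upstream of the start, in no annotated gene, and was overlapped at every later time.

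**Figure D2:**
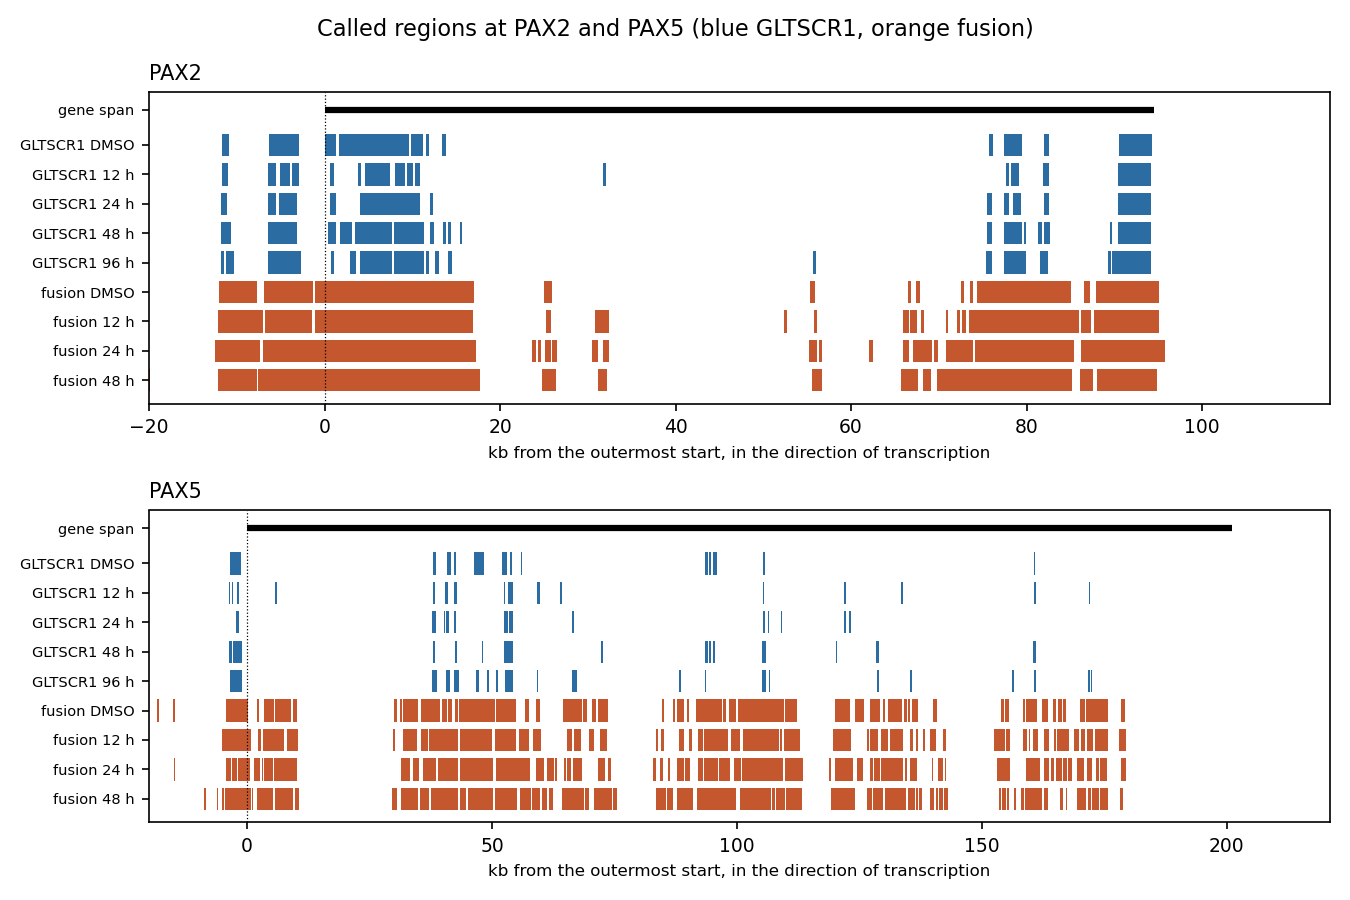
Called regions in the PAX2 and PAX5 windows, 1 row per library (blue, GLTSCR1; orange, fusion), against distance in kb from the outermost start in the direction of transcription; the black bar is the gene span. PAX2 calls sit mostly at both ends of the gene, whereas fusion calls run through much of PAX5.

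PAX8, which encodes a thyroid and kidney factor, stood apart from PAX2 and PAX5, the other members of its subfamily. No GLTSCR1 list called its window. In the fusion lists 1 region of 290 bp was called in DMSO (chromosome 2, 113198626 to 113198915, fold 3.50), and none at 12, 24 or 48 h. That region lay within the neighbouring gene PSD4, 17.1 kb beyond the PAX8 gene span. In the GLTSCR1 lists the region nearest to the gene span was 262 kb away in DMSO, 159 kb at 12 h, 77.3 kb at 24 h, 249 kb at 48 h and 610 kb at 96 h. Peak lists do not give read depth, and a window without a call is one where nothing passed the caller's threshold in that library.

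PAX3 and PAX7, the regulators of neural crest and muscle progenitors, shared a concentration of calls at the 5′ end. PAX3 lies on chromosome 2 at 222199887 to 222298998, minus strand. GLTSCR1 regions covered 14.7 kb of its window in DMSO, 5.41 kb at 12 h, 3.96 kb at 24 h, 8.03 kb at 48 h and 8.21 kb at 96 h. All 4 treated lists were below DMSO, with the 24 h list lowest. The upstream flank, which holds the lncRNA gene CCDC140 and part of the neighbouring gene RNF228, contained 82.5% of the DMSO bases. The strongest GLTSCR1 region of DMSO (222305820 to 222307640, 1.82 kb) had its summit at −7.27 kb from the start, in no annotated gene. Its site had a fold of 10.4 in DMSO and no call at 24 h, and the folds of the 12, 48 and 96 h lists were 5.64, 5.12 and 5.07. The widest (222298676 to 222303322, 4.65 kb, fold 7.54) spanned the start itself and was overlapped at every later time.

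Fusion regions at PAX3 covered 27.6 kb in DMSO, 28.6 kb at 12 h, 22.1 kb at 24 h and 24.7 kb at 48 h, a range that holds lists above and below DMSO. The strongest in DMSO (222287886 to 222292058, 4.17 kb, fold 10.6) lay inside the gene, 9.93 kb from the start, and the widest (222298242 to 222307739, 9.5 kb, fold 8.20) ran from the start over CCDC140. In the 12, 24 and 48 h lists the strongest fusion summit of the window lay instead at a site that reached into RNF228. Its folds were 9.61, 10.6 and 17.1. Those summits lay at −14.0, −14.2 and −14.1 kb from the start, outside the RNF228 span. The DMSO fold at that site was 9.77. A further group of fusion calls lay past the 3′ end, in the flank downstream of the gene, with 3.06 kb covered in DMSO and 4.55, 1.67 and 2.85 kb later.

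PAX7 lies on chromosome 1 at 18630846 to 18748866, plus strand, and is the factor that marks muscle satellite cells. GLTSCR1 regions covered 9.75 kb in DMSO, 3.01 kb at 12 h, 3.27 kb at 24 h, 3.4 kb at 48 h and 5.36 kb at 96 h. Every treated list was below DMSO. Fusion regions covered 11.7 kb in DMSO, 9.41 kb at 12 h, 7.57 kb at 24 h and 10.4 kb at 48 h, also all below DMSO. The segment of the gene nearest its start held between 89.4% and 100% of the covered bases in every list of either antibody. The remainder of this long gene carried GLTSCR1 at 1 site only, 50.7 kb inside the start, at 12 h (fold 3.52) and 96 h (5.62), where no fusion list had a region.

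In DMSO all 8 GLTSCR1 regions at PAX7 were overlapped by fusion regions. The widest GLTSCR1 region of DMSO (18640644 to 18643057, 2.41 kb, fold 7.17) lay within the strongest and widest fusion region (18639390 to 18643432, 4.04 kb, fold 9.18), and their summits stood 10.7 and 10.6 kb inside the start. The strongest GLTSCR1 region (18646107 to 18647275, 1.17 kb) lay 16 kb inside the start, with site folds of 8.73 in DMSO and 4.40, 5.56, 4.26 and 6.62 at the later times. Only 0.12 kb of the window, at the first of these places, lay under a region in all 9 lists. PAX7 also held 2 of the 5 GLTSCR1 DMSO regions of the family that no later list overlapped, at 18636204 to 18636735 and 18644504 to 18645569.

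PAX6 and PAX4, which act in the eye and in endocrine pancreas, differed completely in calls. PAX6 lies on chromosome 11 at 31789026 to 31817961, minus strand. GLTSCR1 regions covered 6.35 kb of its window in DMSO, 1.9 kb at 12 h, 1.52 kb at 24 h, 2.36 kb at 48 h and 2.53 kb at 96 h. All 4 treated lists were below DMSO. The strongest DMSO region (31812648 to 31814418, 1.77 kb) had its summit 4.41 kb inside the outermost start. The stretch of 367 bp (31813417 to 31813783) that all 9 lists covered lay within it. The widest (31814780 to 31816709, 1.93 kb, fold 5.54) lay nearer the start and was called in 4 GLTSCR1 lists, 96 h being the exception. In every GLTSCR1 list but that of 12 h, regions were also called upstream, over the antisense gene PAX6-AS1, and in DMSO and at 96 h also over the lncRNA gene PAUPAR.

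Fusion coverage at PAX6 was steady by comparison, at 18.2 kb in DMSO, 16 kb at 12 h, 18.5 kb at 24 h and 18.5 kb at 48 h. The calls lay around the outermost start, with 44.9% to 50.9% of the bases upstream of it and none past the 3′ end of the gene. The strongest and widest fusion region of DMSO (31811429 to 31820779, 9.35 kb, 15 summits, fold 12.4) spanned that start. All 8 fusion regions of DMSO were overlapped at every later time, against 1 of the 7 GLTSCR1 regions. The table gives PAX6 9 starts. Fusion regions called the outermost in 4 lists and the next in 4, and none of the 5 starts nearest the 3′ end was called in any list.

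PAX4 lies on chromosome 7 at 127610292 to 127618142, minus strand, and no list called its window. The region nearest to the gene was 21.7 kb from it in the GLTSCR1 list of DMSO, just outside the window, and 32.9 to 33.2 kb from it in the later GLTSCR1 lists. In the fusion lists it was 33 kb away in DMSO and 215 to 218 kb away at the later times.

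PAX9 and PAX1, the sclerotome and pharyngeal pouch members, also differed. PAX9 lies on chromosome 14 at 36657568 to 36679362, plus strand, and its upstream flank holds the lncRNA gene LOC105370455. GLTSCR1 regions covered 1.41 kb in DMSO, 0.463 kb at 12 h, 1.54 kb at 24 h, 1.95 kb at 48 h and 0.553 kb at 96 h, in 4, 1, 4, 5 and 1 regions. The lists do not order by time. All of these bases lay within 5 kb of the outermost start. Although every GLTSCR1 list called the window, no base of it was covered in all 5; the site nearest to that, just upstream of the start, had regions in all 5 lists at different positions, with folds of 3.27 to 3.99. The strongest DMSO region (36654726 to 36654997, 0.272 kb, fold 5.26) and the widest (36658718 to 36659174, 0.457 kb, fold 4.78) were each overlapped at 48 h alone. Fusion regions covered 10.8 kb in DMSO, 11.7 kb at 12 h, 10.6 kb at 24 h and 12.3 kb at 48 h, and the strongest and widest (36654322 to 36659937, 5.62 kb, fold 7.12) spanned the start.

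PAX1 lies on chromosome 20 at 21705664 to 21718481 and had no call in any list. The nearest GLTSCR1 region lay 182 kb from the gene in DMSO and at 48 h, and 133 kb from it at 12, 24 and 96 h; the nearest fusion region was 180 to 182 kb away. Close to the nearest DMSO regions lies NKX2-2, the gene of a ventral neural tube and islet factor. In DMSO, GLTSCR1 covered 21.1% and the fusion 36.1% of the NKX2-2 window. At PAX9 the neighbour NKX2-1, the gene of a thyroid and lung factor 137 kb away, was covered at 16.6% by GLTSCR1 and 40.7% by the fusion in DMSO. These 2 neighbours were picked out after their values were seen.

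**Figure D3:**
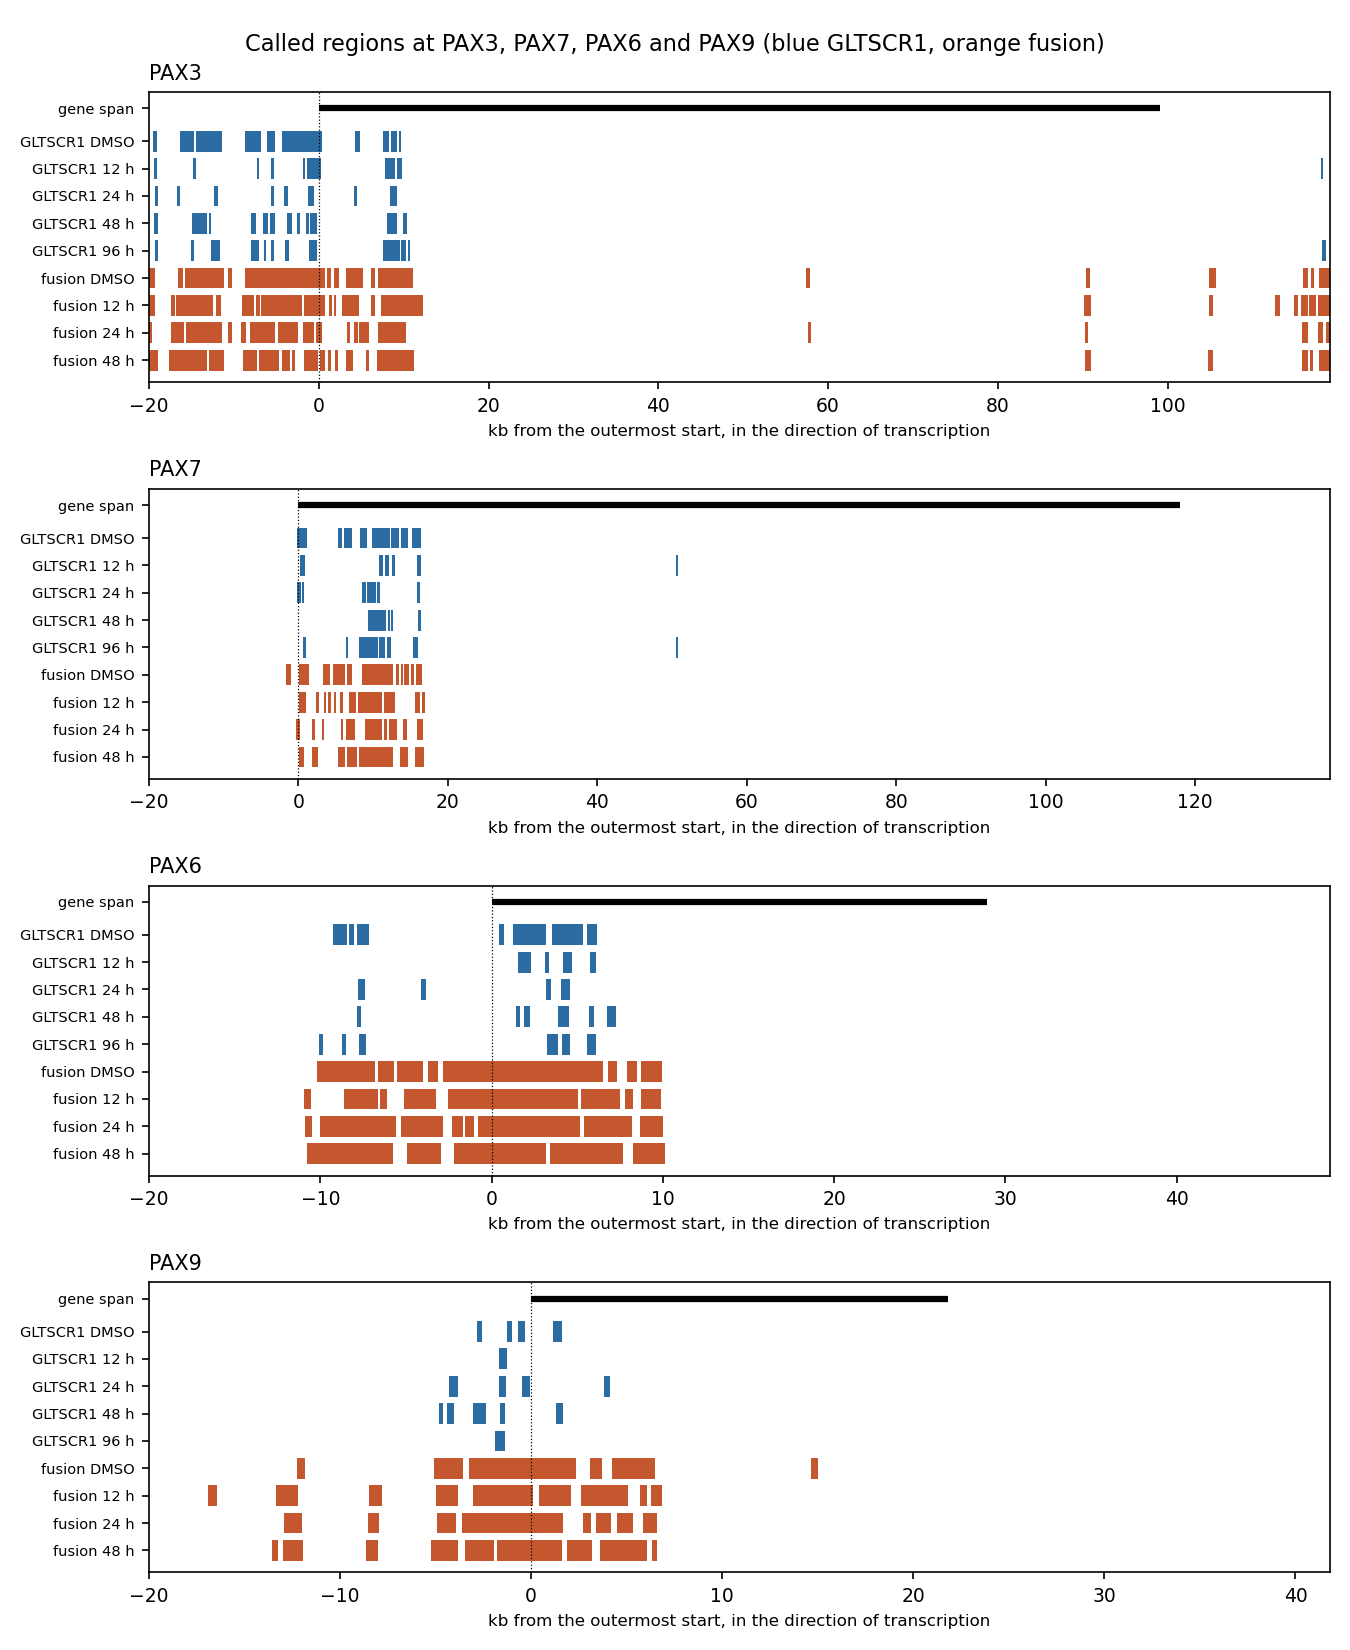
Called regions in the PAX3, PAX7, PAX6 and PAX9 windows, 1 row per library (blue, GLTSCR1; orange, fusion), against distance in kb from the outermost start in the direction of transcription; the black bar is the gene span. Calls gather around and upstream of the start of PAX3, PAX6 and PAX9 and, at PAX7, in the segment of the gene nearest the start.

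The starts themselves were mostly called by the fusion. A window of 250 bp before to 50 bp after the outermost start was covered by fusion regions at 5 of 8 members in DMSO and at 12 h and at 6 of 8 at 24 and 48 h, where 11.5%, 9.72%, 8.86% and 11.4% of all genes with a promoter entry were called. The 5 were PAX2, PAX3, PAX5, PAX6 and PAX9, and PAX7 was added at 24 and 48 h. GLTSCR1 regions covered 2 of 8 in DMSO (PAX3 and PAX7), 1 at 12 h (PAX3), 2 at 24 h (PAX7 and PAX9), 1 at 48 h and 1 at 96 h (PAX3 both times), against 22.6%, 17.5%, 7.9%, 5.91% and 8.24% of genes. With the window widened by 1 kb on either side, the GLTSCR1 counts were 6, 4, 4, 3 and 4 of 8. The share of all genes called in the widened window was not computed, so these counts have no background.

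Retention of DMSO regions was counted next. Of 53 GLTSCR1 regions in the PAX windows in DMSO, 33 were overlapped by a region at 12 h (62.3%, exact Clopper-Pearson 95% interval 47.9 to 75.2), where 55.8% of the whole list was. At 24 h 30 were (56.6%, 42.3 to 70.2), against 47.6% of the list. At 48 h 38 were (71.7%, 57.7 to 83.2), against 43.2%, and at 96 h 39 were (73.6%, 59.7 to 84.7), against 48.6%. The list's share lay inside the interval at 12 and 24 h and below it at 48 and 96 h. These intervals cover counting error only, and regions of 1 gene are not independent. Without PAX2, the shares were 59.5%, 50%, 66.7% and 69%.

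Regions called at every later time numbered 22 of 53 for GLTSCR1 (41.5%, against 26.7% of the list), 8 of them at PAX2, 6 at PAX5, 5 at PAX3, 2 at PAX7 and 1 at PAX6. The 5 that no later list overlapped (9.43%, against 26%) lay at PAX6 and PAX7, 2 each, and at PAX5, 1. For all 5 of these places at least 3 fusion lists had a region. Later GLTSCR1 regions that overlapped no DMSO region numbered 9 of 51 at 12 h, 12 of 46 at 24 h, 14 of 58 at 48 h and 21 of 62 at 96 h, or 17.6%, 26.1%, 24.1% and 33.9%. The whole lists had 30.6%, 37.2%, 32.8% and 36.2%. PAX5 held 11 of the 21 at 96 h.

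For the fusion, 89 of 106 DMSO regions were overlapped at 12 h (84%, 75.6 to 90.4, against 72.3% of the list), 90 at 24 h (84.9%, 76.6 to 91.1, against 64.7%) and 91 at 48 h (85.8%, 77.7 to 91.9, against 68.8%). The list's share lay below the interval each time. Overlap by 1 bp is easier for wide regions, and the PAX regions were wider than those of the lists. Their median width in DMSO was 814 bp for the fusion, against 675 bp, and 805 bp for GLTSCR1, against 568 bp. Of the 106 fusion regions, 52 lay in the PAX5 window, and regions of 1 gene are not independent. Among all 106, a region was called at every later time for 78 (73.6%, against 50.8%) and at none for 6 (5.66%, against 14.3%). Those 6 lay at PAX5 and PAX7, 2 each, and at PAX8 and PAX9, 1 each. Later fusion regions without a DMSO region were 19 of 115, 20 of 118 and 20 of 108 (16.5%, 16.9% and 18.5%), against 36.1%, 28.6% and 32.1% of the lists. When strongest summits within 250 bp replaced overlap, the retained share of GLTSCR1 regions was 37.7%, 37.7%, 49.1% and 32.1%, with 38.2%, 31.6%, 29.6% and 32.7% over the list. That of fusion regions was 38.7%, 40.6% and 36.8%, with 33.5%, 32.3% and 33.4%. On that rule the PAX share exceeded that of the list by over 10 percentage points for GLTSCR1 at 48 h alone.

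**Figure D4:**
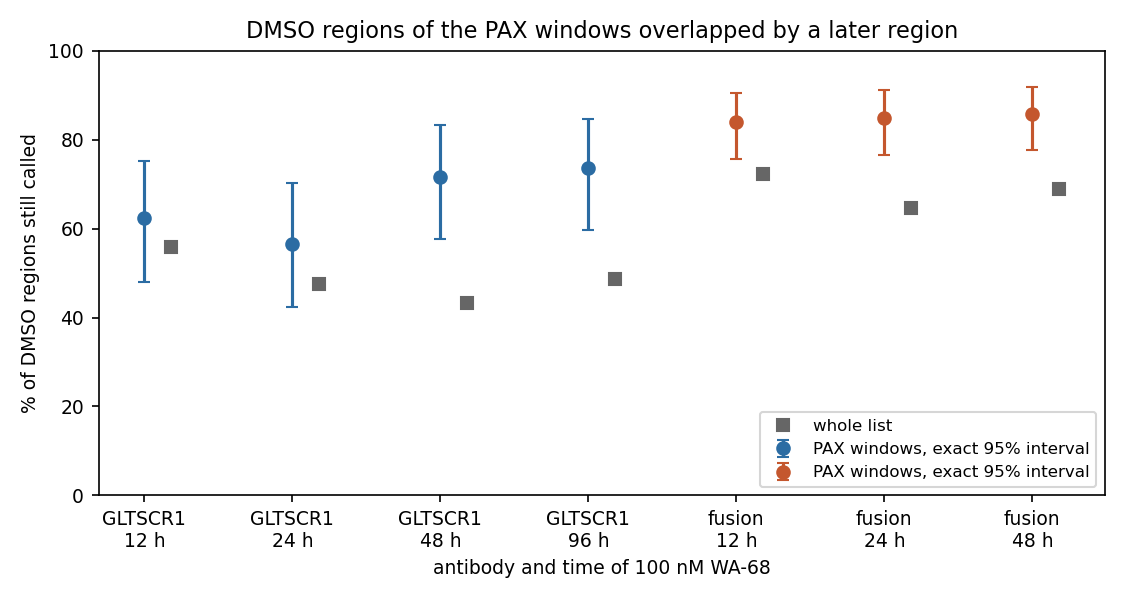
Percent of DMSO regions in the PAX windows that a region of the same antibody overlapped at each later time (circles, with exact 95% intervals that cover counting error only; blue GLTSCR1, orange fusion) and the same over the whole list (grey squares). The square lies within the interval for GLTSCR1 at 12 and 24 h and below it in the other 5 comparisons.

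GLTSCR1 in the PAX windows was nearly always called together with the fusion. In DMSO, 52 of 53 GLTSCR1 regions (98.1%, 89.9 to 100) were overlapped by a fusion region, against 59.3% of the list. The counts were 49 of 51 at 12 h (96.1%, against 55.2%), 44 of 46 at 24 h (95.7%, against 54.1%) and 57 of 58 at 48 h (98.3%, against 66.7%). The 1 exception in DMSO was at PAX5. Wide regions meet others more easily than narrow ones: in DMSO, 10 of the 106 PAX fusion regions (9.43%) were over 5 kb wide, against 4.7% of the list, and 1 of the 53 GLTSCR1 regions (1.89%), against 1.26%. The nearest fusion summit was a median of 145 bp from the strongest GLTSCR1 summit of a region in DMSO, 92 bp at 12 h, 179.5 bp at 24 h and 123 bp at 48 h, and 347, 389, 426 and 239 bp over the lists. Within 250 bp were 73.6%, 76.5%, 65.2% and 81% of the regions, against 42.6%, 41.1%, 39.9% and 51.3%. Every fusion summit counted here, and a wide region can hold many, such as the 23 in the widest PAX2 region of DMSO. More summits make a near one likelier. With each fusion region reduced to its strongest summit as well, 26.4% of the PAX GLTSCR1 regions of DMSO had one within 250 bp, near the 22.6% of the list, and 35.3%, 34.8% and 22.4% did later, against 22.4%, 22.3% and 26.6%.

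The reverse overlap was partial and varied by gene. Of fusion regions, 32 of 106 in DMSO were overlapped by GLTSCR1 (30.2%, against 36.2% of the list), then 31 of 115 (27%, against 24.2%), 28 of 118 (23.7%, against 26.6%) and 32 of 108 (29.6%, against 25.3%). In bases, GLTSCR1 lay over 68.1% of the fusion-covered length at PAX7 in DMSO, 51.9% at PAX3, 45.2% at PAX2, 35% at PAX6, 13% at PAX9 and 11% at PAX5. At 12 h these shares were 26.7%, 17.6%, 28.1%, 11.8%, 3.96% and 7.11%, lower than in DMSO at all 6 genes. At 48 h they were 31.9%, 30.3%, 40.2%, 12.7%, 15.4% and 8.36%; PAX9 alone was above its DMSO value.

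**Figure D5:**
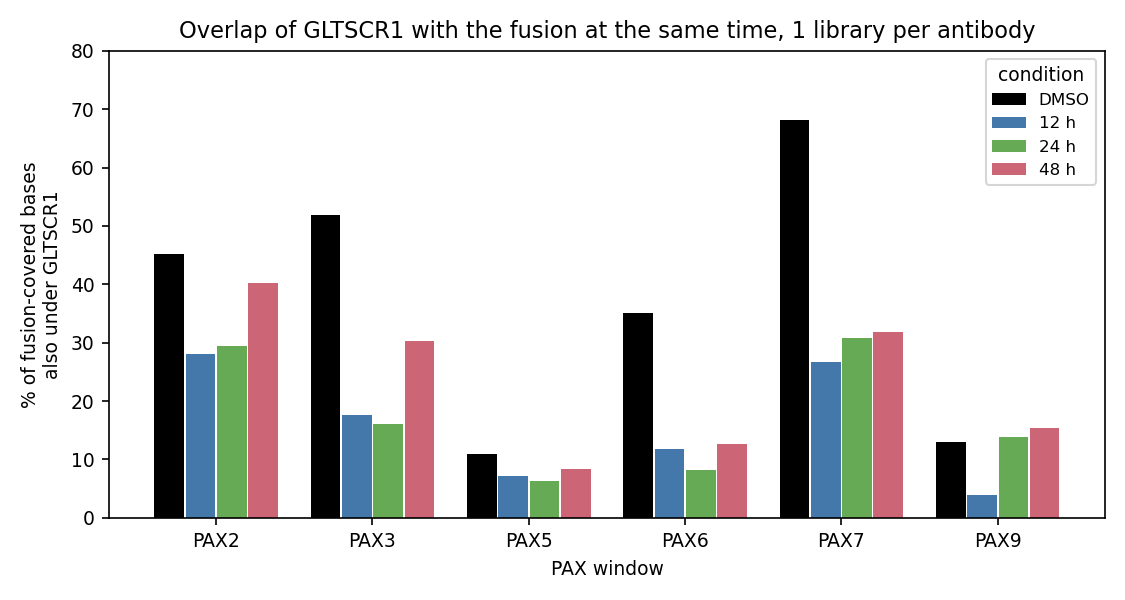
Percent of the bases under fusion regions in each PAX window that also lay under a GLTSCR1 region of the same condition; each bar compares 1 library per antibody, so no error can be drawn. PAX7 was highest in DMSO (68.1%) and PAX2 at 48 h (40.2%), and PAX5 stayed at or below 11%.

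Genes tied to PAX function were counted by the same window rule in 7 lists of 76 genes in all, drawn up from general knowledge. GLTSCR1 called 49 of the 76 in DMSO and 45, 45, 44 and 45 later; the fusion called 51, 54, 54 and 52. These are 57.9% to 64.5% and 67.1% to 71.1% of the genes, against 28.8% to 50.3% and 30.9% to 33.9% of all genes. With the gene span alone, without its flanks, the later GLTSCR1 counts were 24, 23, 21 and 29 of 76. The share of all genes under that narrower rule was not computed, and the shares above belong to the wider window. Retinal determination genes form a regulatory network with PAX, in which the sine oculis homologues bind DNA and EYA and DACH proteins act with them. Of these 12 genes, 8 were called by GLTSCR1 in DMSO and 6, 6, 6 and 7 later, and 9 by the fusion and then 8 each time. Over all genes GLTSCR1 called 50.3% in DMSO and 47.2%, 36.6%, 28.8% and 35.8% later, and the fusion 30.9% to 33.9%. At 12 h the 6 of 12 for GLTSCR1 were near the share of all genes. EYA1 had the strongest GLTSCR1 summit of this group in DMSO (fold 13.8) and also the strongest of the fusion (13.1), followed for GLTSCR1 by SIX5 (12.0) and DACH1 (10.9) and for the fusion by DACH1 (12.0) and DACH2 (6.89).

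Among 9 partners and cofactors of PAX proteins, GLTSCR1 called 8 in every list but that of 96 h (7), and the fusion called 6, 7, 7 and 8. The shares of all genes were 28.8% to 50.3% for GLTSCR1 and 30.9% to 33.9% for the fusion. SOX2, which pairs with PAX6 in lens and neural cells, was covered by GLTSCR1 over 33.1% and by the fusion over 47.8% of its window in DMSO. The Groucho corepressor genes TLE3 and TLE4 had GLTSCR1 folds of 15.3 and 9.56.

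Of 11 kidney, ear and thyroid genes downstream of PAX2 and PAX8, GLTSCR1 called 7, 7, 8, 8 and 7 and the fusion 10, 10, 9 and 9. Over all genes GLTSCR1 called 50.3%, 47.2%, 36.6%, 28.8% and 35.8% and the fusion 33.9%, 33.6%, 30.9% and 32.7%. The median covered share of the kidney, ear and thyroid genes by the fusion was 8.52% in DMSO, where the median of all genes was 0. Here GATA3 (fold 14.8), LHX1 (10.7) and GDNF (9.36) led for GLTSCR1, and WT1 (11.6), LHX1 (9.12) and NKX2-1 (8.65) for the fusion. Of 14 eye, brain and islet genes downstream of PAX6 and PAX4, GLTSCR1 called 9, 7, 7, 6 and 8 and the fusion 9, 10, 10 and 10. At 12 h the 7 of 14 for GLTSCR1 were near the 47.2% of all genes. The median share covered by the fusion in this group was 17% in DMSO and 13.4% at 48 h. Its leading genes were NKX2-2 (12.3) and NEUROG2 (9.62) for GLTSCR1, and NKX2-2 (15.9) and MAB21L2 (13.0) for the fusion.

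Of 10 sclerotome and cartilage genes downstream of PAX1 and PAX9, GLTSCR1 called 8 and then 7 each time, and the fusion 8, 7, 10 and 8. MSX1 (13.2), BMP4 (8.16) and SOX5 (6.14) had the highest GLTSCR1 folds in DMSO, and SOX5 (14.7), NKX3-2 (9.25) and BMP4 (8.60) the highest fusion folds. Of 10 myogenic and neural crest genes downstream of PAX3 and PAX7, GLTSCR1 called 5 in every list, and the fusion 6, 6, 5 and 5. In DMSO the 5 of 10 for GLTSCR1 were no larger a share than the 50.3% of all genes. Later the GLTSCR1 count was still 5 of 10, while the share of all genes was 47.2%, 36.6%, 28.8% and 35.8%. The count thus lay above that share only because the share of all genes was lower than in DMSO. The first of these gaps, 5 of 10 against 47.2%, was less than 1 gene. The fusion counts were a larger share than that of all genes in every list (33.9%, 33.6%, 30.9% and 32.7% of all genes). LBX1, a limb muscle precursor gene, led for GLTSCR1 (14.1, ahead of DCT at 8.39 and RET at 6.55), and FOXD3, a neural crest gene, for the fusion (10.3, ahead of LBX1 at 8.44 and RET at 6.73). Of 10 B cell genes downstream of PAX5, GLTSCR1 called 4, 5, 4, 4 and 4 and the fusion 3, 6, 5 and 4, with a median covered share of 0 in DMSO for both. The DMSO counts of this list, 4 and 3 of 10, were below the shares of all genes, 50.3% and 33.9%. At every later time the counts were above the shares of all genes. These shares were then 47.2%, 36.6%, 28.8% and 35.8% for GLTSCR1 and 33.6%, 30.9% and 32.7% for the fusion. Each gene is 10% of this list, so several of these gaps are small, such as 5 of 10 against 47.2% for GLTSCR1. The GLTSCR1 count was 4 in DMSO and in every later list but the first. Where it stayed at 4, only the share of all genes had fallen. Whether the counts differ from all genes was not tested. The leading B cell genes were IKZF3 (8.16 and 10.4), BLK (7.94 and 8.92) and CD79A (6.20 and 4.38), for GLTSCR1 and the fusion respectively. Over the 4 fusion lists the median covered share of these B cell genes was at most 0.404%, where that of PAX5 itself was at least 37.8%.

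Genes whose covered shares ran most like those of a member were found for the 3 members with the most covered bases, by the Euclidean distance between covered shares over the 9 lists among genes of comparable window length. For PAX5 these were ELFN1 (distance 6.30 percentage points), CFAP46 (8.20) and EDAR (10.3), out of 3746 genes. ELFN1, for example, had 39.8% of its window under the fusion in DMSO and 2.62% under GLTSCR1, where PAX5 had 37.8% and 4.44%. For PAX3 they were BARX2 (5.03), MARCHF10 (5.64) and JAG1 (5.90), out of 7835 genes; BARX2 had GLTSCR1 on 12.6% of its window in DMSO and 3.46% at 12 h, and PAX3 had 10.6% and 3.89%. For PAX2 the nearest, ZC3H3, CACNA1H and EMC2, were far less alike, at 19.6, 20.9 and 21.5 points out of 8221 genes. At ZC3H3 GLTSCR1 covered 10% in DMSO against 16.7% at PAX2, while the fusion covered 47.3% against 36.9%.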

How the data were processed

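For each library the authors deposited a list of peaks, with GRCh38 (hg38) as the build the notes name. Per the submitters' processing notes, the tools named, in no stated role or order and with no versions, were MACS2, BWA, Picard, SAMtools and deepTools, and cutadapt, Trim Galore, FastQC and bcl2fastq. By the column layout of the deposited files, the authors gave each summit a fold enrichment (a linear ratio), a −log10 p and −log10 q value and an integer score. The lowest deposited −log10 q was 3.00 in each list. Read depth is unknown.

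Entries with the same coordinates were joined into 1 region carrying its strongest summit, and chromosomes 1 to 22, X and Y were kept (13677 to 18037 GLTSCR1 and 24846 to 28619 fusion regions). A region counted for a gene when it overlapped the gene span and 20 kb either side (RefSeq, GRCh38.p14) by at least 1 bp. Where regions of several lists were joined into a site, each list's fold is its highest there. Shares have exact 95% intervals. Scripts used Python 3.11.15, numpy 2.4.6 and scipy 1.17.1, and interval arithmetic was tested on simulated data.

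Named were all members, each one's strongest and widest DMSO region per antibody, up to 3 genes per related list and antibody by DMSO fold, and 3 genes most alike to each of 3 members. Some genes that this rule names are not reported here. The members and lists were chosen with earlier results of these data known. Alternatives were a stricter −log10 q, lists of equal length, other overlaps, merging, and other windows.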

Additional observations from a re-analysis of the deposited data

How the results depend on the processing

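With 1 library per group, neither replicate error nor variation between cultures can be given, and read depth, which limits what could be called, is unknown. No paired analysis was possible because each group held 1 library. The number of PAX windows called, and every other count or share not named here, moved by less than its interval or by under 1.5 times under the alternatives it was given. With −log10 q of at least 5, GLTSCR1 regions overlapped by the fusion came to 100% at 12 h and 100% at 48 h, and GLTSCR1 called 1 PAX start at 24 h. Lists of equal length gave 100% at 12 h. Requiring an overlap of 50% of the shorter region put fusion retention at 24 h at 72.6% and regions without a DMSO region at 28%. Merging regions within 500 bp gave 72.2% GLTSCR1 retention at 24 h and 40.4% of fusion regions overlapped by GLTSCR1 at 48 h. With the gene span alone, GLTSCR1 called 24, 23, 21 and 29 related genes at 12, 24, 48 and 96 h. With starts widened by 1 kb, it called 6 in DMSO and 4, 4, 3 and 4 later. Shares of all genes were not computed for the gene span alone or for the widened starts. The comparison of strongest summits within 250 bp moved all 22 shares it was applied to: retention was 37.7%, 37.7%, 49.1% and 32.1% for GLTSCR1 and 38.7%, 40.6% and 36.8% for the fusion, regions without a DMSO summit were 60.8%, 56.5%, 55.2% and 72.6% for GLTSCR1 and 63.5%, 63.6% and 63% for the fusion, GLTSCR1 with fusion was 26.4%, 35.3%, 34.8% and 22.4%, and fusion with GLTSCR1 was 13.2%, 15.7%, 13.6% and 12%. Only the strongest summit of each region enters that comparison, so a region with several summits fails when another one is strongest. For regions without a DMSO region or summit, no whole-list share was computed under this rule or under the 50% overlap. Those values therefore cannot be compared with the lists.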
